A study of Mus musculus with 6 samples.

Results

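Complement is a cascade of blood proteins and cell surface proteins that marks microbes and damaged cells and can lyse them. It is started by the classical and lectin pathways, which cleave C4 and C2, and by the alternative pathway, in which factor B binds cleaved C3 to form an enzyme that cleaves more C3. Host cells hold the cascade back with soluble inhibitors such as the C1 inhibitor and with membrane proteins such as CD55 and CD59. The liver is the main source of circulating complement, but muscle cells and fibroblasts make components too, and interferons and inflammatory cytokines are known inducers of several of the genes.

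The complement genes described here form a list of 8: C1ra and C1s1 (the proteases of the C1 complex), C3, C4b, Cfb (factor B), Serping1 (the C1 inhibitor), Cd55 and Cd59a. Of these, 7 have a transcript among the 11835 mouse genes with deposited values. C4b has none there and was not analysed here. They were measured in C2C12, a line of mouse myoblasts that forms myotubes in horse serum. The siNC group is 3 samples given NC siRNA, and the siCNN3 group is 3 samples given CNN3 siRNA against the actin-binding protein calponin 3. Which CNN3 siRNA the sequenced cells received is not given in the sources used here. The labels call the cells myotubes and do not say whether the samples are separate cultures, so p-values measure the spread between these samples, which may be technical. Each value is in FPKM, a fragment count scaled by transcript length and library size, and was summed over the transcripts of a gene. The depth of the samples is unknown, which leaves these values without a counting error.

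All values of the targeted gene were lower in siCNN3. The Cnn3 level was 61.4 to 62.8 FPKM across the siNC group and 19.0 to 39.2 FPKM across the siCNN3 group (adjusted p = 0.0669, limma). Over the 17 alternatives its adjusted p lay between 0.0477 and 0.225, and it passed the threshold in 1 of them, without siCNN3 replicate 2. Muscle markers were present in both groups, with 11 of 12 listed and summed levels of 180.7 to 216.9 FPKM in siNC and 104.6 to 125.4 FPKM in siCNN3. Of the 10 that were tested, limma called 5 lower (0.336% of all tested genes). All 10 lay wholly below siNC in siCNN3 (9.35% of all tested genes), and their median log2 fold change was -1.20. The skeletal muscle actin gene Acta1 had 24.6 to 33.8 FPKM in siNC samples but 5.35 to 6.43 FPKM in siCNN3 samples. Desmin (Des), which makes up most of the summed levels, was the least changed of the tested markers at -0.36 on the log2 scale and was at 84.3 FPKM or more in every sample, while creatine kinase (Ckm), a gene of mature muscle, was at 0.911 FPKM or less. Hepatocyte markers had 2 of 6 genes listed, Apoa1 and Hp but not Alb or Ttr. Their summed levels were 3.78 to 10.5 FPKM in siNC and 0.763 to 0.910 FPKM in siCNN3, and these 2 lay wholly below siNC in siCNN3 (9.35% of all tested genes). Blood and immune markers had 5 of 13 listed, namely Cd14, Cd68, Lyz2 and the globins Hba-a1 and Hbb-bs, but not Ptprc, Adgre1 or Csf1r. They summed to 168.9 to 448.9 FPKM in siNC and 47.1 to 62.9 FPKM in siCNN3. Of these 5, 4 lay wholly below siNC in siCNN3 (9.35% of all tested genes), and limma called 1 lower (0.336% of all tested genes). For endothelial markers, 1 of 5 was listed (0.681 to 1.37 FPKM in siNC, 0.733 to 1.24 FPKM in siCNN3), and for fibroblast markers 5 of 7 (1054 to 1445 and 697.9 to 859.7 FPKM). The part of these cell types in the complement values was not tested, and in such bulk samples fewer cells of a type and less RNA per cell cannot be told apart.

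Of the 7 genes, factor B rose in siCNN3 and the other 6 did not pass the test. The test was limma on log2(FPKM + 1) over 11593 genes with Benjamini-Hochberg adjustment and a threshold of 0.05. It called 1 of the 7 higher, against 1.73% of all tested genes, and 0 lower, against 0.336% of all tested genes. Before adjustment, p was below 0.05 for 2 genes that were higher (9.94% of all tested genes) and 3 that were lower (6.14% of all tested genes). Without the trend, limma also called 1 higher and 0 lower. The siCNN3 values lay wholly above the siNC values for 2 genes, Cfb and C1ra (13.8% of all tested genes), and wholly below them for 3 genes, C3, Cd55 and Cd59a (9.35% of all tested genes). The median log2 fold change of the 7 was -0.28, and that of all tested genes was 0.028. An exact permutation test of 3 against 3 samples cannot give a p below 0.1, and each of those 5 genes reached that value (two-sided).

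**Figure D1:**
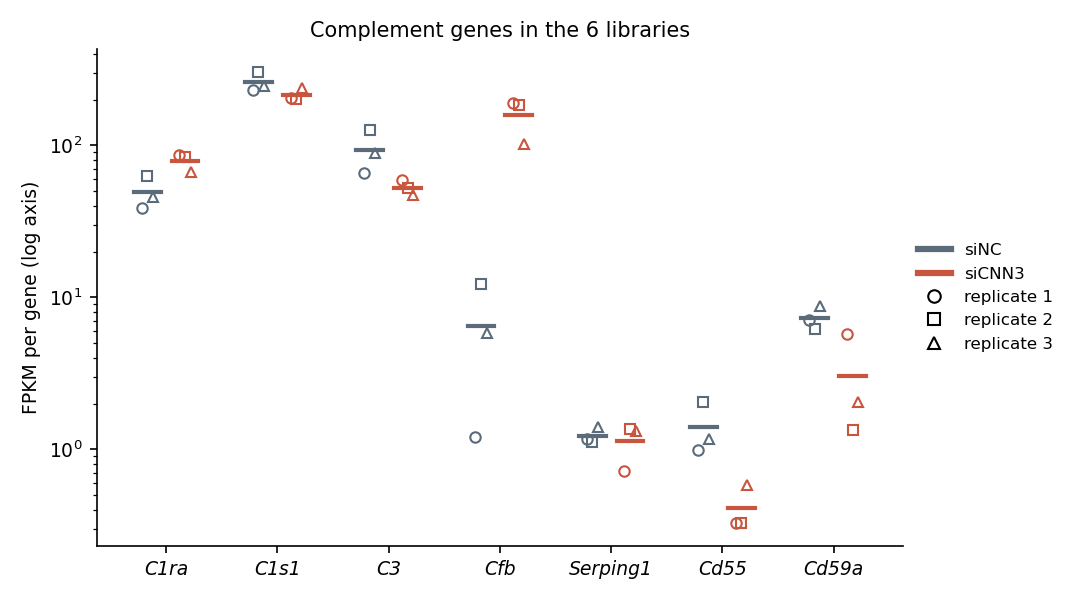
FPKM of the 7 complement genes (log axis) in siNC (grey) and siCNN3 (red), with a symbol for each replicate and a bar at the mean of 3 samples. Cfb moves from 1.21 to 12.3 FPKM in siNC up to 103 to 189 FPKM in siCNN3, while C3, Cd55 and Cd59a lie lower in siCNN3 and C1s1 and Serping1 overlap.

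Among the proteases, Cfb encodes factor B, the zymogen that supplies the catalytic subunit of the alternative pathway convertase. Cfb lies on chromosome 17 of GRCm38, from 34856374 to 34862518, in the class III region of the major histocompatibility complex, next to C2 (34862604 to 34898265) and near C4b (34728380 to 34743882). Replicates 1, 2 and 3 had 1.21, 12.3 and 5.85 FPKM of Cfb in the siNC group and 189, 184 and 103 FPKM in the siCNN3 group, and values below are in the same order of replicates. The lowest siCNN3 sample was thus far above the highest siNC sample, although the siNC samples spread widely. The mean was 6.44 ± 5.55 FPKM for the siNC group against 158.4 ± 48.2 FPKM for the siCNN3 group (SD, n = 3), a ratio of 24.6. On the log2(FPKM + 1) scale the fold change was 4.71 (standard error 0.621, 95% interval 3.24 to 6.19, adjusted p = 0.0189, limma), which ranks 16 among the 11593 tested genes. In siNC the mean of Cfb was above that of 37.6% of tested genes, and in siCNN3 above that of 97.1% of them. The call was lost when siNC replicate 3 was left out (adjusted p = 0.0899, limma), and likewise for siCNN3 replicate 1 (adjusted p = 0.082) and siCNN3 replicate 2 (adjusted p = 0.0849), with log2 fold changes between 4.01 and 5.30 when any sample was left out.

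Cfb has 7 transcripts in the deposited values, all of them annotated as protein coding. The 4 long ones, Cfb-201, Cfb-202, Cfb-206 and Cfb-207, have 18 exons each, and the other 3 are shorter. Cfb-201 was at 75.1 and 75.4 FPKM in siCNN3 replicates 1 and 2 and at 9.08 FPKM in siCNN3 replicate 3. It made up 39.8%, 41.1% and 8.83% of the Cfb total in these samples. In siCNN3 replicate 3, Cfb-202 (33.1 FPKM) and Cfb-205 (17.7 FPKM) were higher than in the other siCNN3 samples, where they were at 17.4 and 19.1 FPKM and at 6.79 and 8.11 FPKM. Cfb-206 held a like share of the total in all siCNN3 samples, between 34.2% and 35.7%. Replicate 3 therefore differed from the other siCNN3 samples in its total and in how the total was divided. It also stood apart over all tested genes. There its log2(FPKM + 1) had a Pearson r of 0.9466 and 0.9559 with siCNN3 replicates 1 and 2, which had 0.9799 with each other. With siNC replicates 1, 2 and 3 its r was 0.9495, 0.9411 and 0.9511. Cfb-208 was listed at 0 in that replicate and at 7.05 and 5.53 FPKM in the others, and an exact 0 can be a failed estimate in this file. No transcript of Gm20547, an annotated gene that overlaps Cfb on the same strand, is among the listed ones. The sum over transcripts is what was tested, and the transcript with the highest mean alone gave 4.54 on the log2 scale (adjusted p = 0.029, limma).

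**Figure D2:**
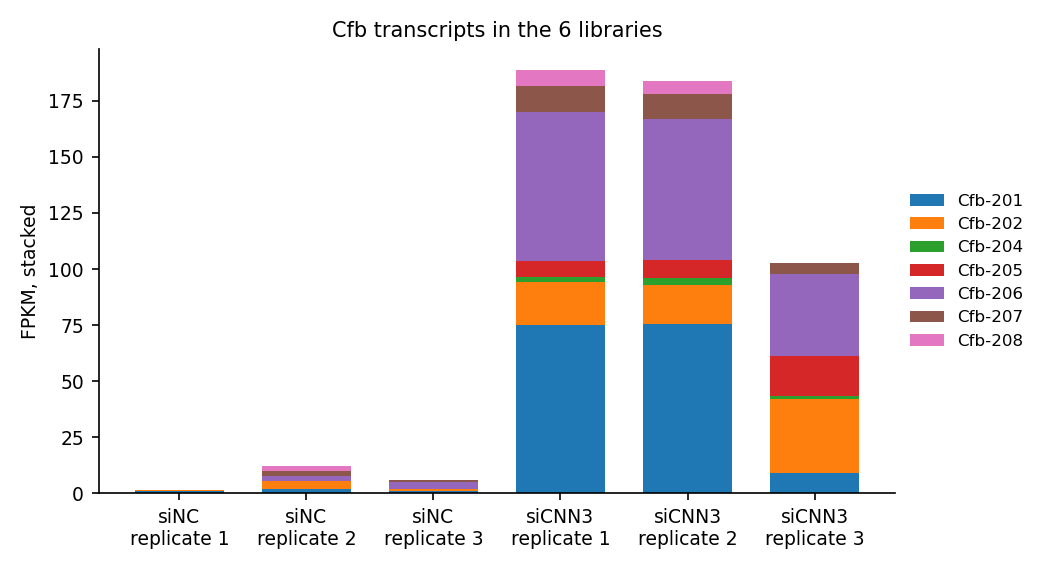
FPKM of the 7 Cfb transcripts, stacked for each of the 6 samples from an axis that starts at 0. The siCNN3 samples reach 189, 184 and 103 FPKM, and Cfb-201 (blue) holds 39.8%, 41.1% and 8.83% of those totals.

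C1ra and C1s1 encode C1r and C1s, the protease pair of the C1 complex that starts the classical pathway when C1q binds its target. They are neighbours on chromosome 6, C1ra from 124512405 to 124523443 on the forward strand and C1s1 from 124530345 to 124542359 on the reverse strand. C1ra was expressed at 38.7, 62.6 and 46.0 FPKM in the siNC group, whereas the siCNN3 group had 86.8, 83.2 and 66.9 FPKM. Every siCNN3 sample was above every siNC sample, but siNC replicate 2 and siCNN3 replicate 3 lay close to each other. The log2 fold change of C1ra was 0.69 (95% interval 0.23 to 1.16, adjusted p = 0.144, limma), and C1ra was not called in any alternative (adjusted p between 0.0846 and 0.431). C1s1 was the most abundant of the 7 genes in both groups. It had 232.7, 304.4 and 247.1 FPKM in the siNC samples and 203.8, 200.8 and 237.3 FPKM in the siCNN3 samples, so that the groups overlapped. Its log2 fold change was -0.28 (95% interval -0.60 to 0.036, adjusted p = 0.36, limma). Of its 4 listed transcripts, the full-length C1s1-203 and C1s1-204 together carried most of the level, with 42.5% to 52.4% and 37.6% to 52.2% of it.

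Reads of C1ra and C1s1 can be shared with tandem copies of these genes, compared here by the listed transcript with the highest mean of each. C1rb lies at 124570294 to 124581171 and C1s2 at 124624625 to 124636085 of the same chromosome. In their coding sequences, 59.7% of all 50-base words of C1ra are also found in C1rb, and the longest identical run has 757 bases. For C1s1 and C1s2 these values are 30.0% and 229 bases. Of the 100-base words, 43.6% of those of C1ra are found in C1rb and 11.3% of those of C1s1 in C1s2. The first 150 coding bases of both C1r genes, from the GENCODE transcripts of GRCm38, show a stretch that is nearly the same, which does not hold for the whole coding sequence. The differing base is in capitals, and there is 1 in this stretch.
C1ra: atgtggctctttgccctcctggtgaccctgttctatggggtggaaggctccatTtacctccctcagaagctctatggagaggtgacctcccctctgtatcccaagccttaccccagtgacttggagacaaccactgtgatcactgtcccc
C1rb: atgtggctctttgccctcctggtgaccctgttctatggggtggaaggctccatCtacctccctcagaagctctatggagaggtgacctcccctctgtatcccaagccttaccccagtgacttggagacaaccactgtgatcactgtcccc
C1rb was expressed at 8.30, 19.0 and 15.9 FPKM in the siNC group, whereas the siCNN3 group had 17.6, 25.2 and 13.8 FPKM, which overlap. Annotated antisense genes also overlap C1s1 (Gm16567) and Cd55 (Gm16083), and since the strand setting of the counting is not given, their reads cannot be told apart. With C1ra and C1rb summed, the log2 fold change was 0.64 (adjusted p = 0.216, limma), and with C1s1 and C1s2 summed it was -0.28 (adjusted p = 0.364, limma).

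C3 is the component on which all pathways converge, and its cleavage tags surfaces and releases a peptide that attracts immune cells. It lies on chromosome 17, from 57203970 to 57228136, apart from the Cfb region. C3 had 65.4, 126.3 and 88.5 FPKM in the siNC samples and 58.9, 52.0 and 47.0 FPKM in the siCNN3 samples. The siCNN3 samples were close to each other and below all siNC samples, of which replicate 1 was the nearest. The siCNN3 mean was 56.3% of the siNC mean, 52.6 ± 5.97 against 93.4 ± 30.7 FPKM (SD, n = 3). The log2 fold change was -0.77 (95% interval -1.33 to -0.21, adjusted p = 0.174, limma), between -0.999 and -0.530 when any sample was left out. The full-length transcript C3-201 carried at least 98.1% of the C3 level in every sample.

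The ratio of genes within a sample does not depend on how samples are scaled to each other. It is given for 2 pairs that were chosen after the values were seen. The ratio of Cfb to C3, the partners of the alternative pathway convertase, was 0.0185, 0.0970 and 0.0661 in siNC and 3.20, 3.53 and 2.19 in siCNN3. Factor B RNA was thus below C3 RNA in every siNC sample and above it in every siCNN3 sample. For the C1 proteases, the ratio of C1ra to C1s1 was 0.166, 0.206 and 0.186 in siNC and 0.426, 0.414 and 0.282 in siCNN3, 1.98 times higher by geometric means. Neither ratio overlapped between the groups (exact permutation p = 0.1 for each, two-sided, the smallest that 3 against 3 allows). For Cfb/C3 this was fixed in advance, since in siCNN3 Cfb lay wholly above siNC and C3 wholly below it. The ratios describe the same values again and are not a further test.

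**Figure D3:**
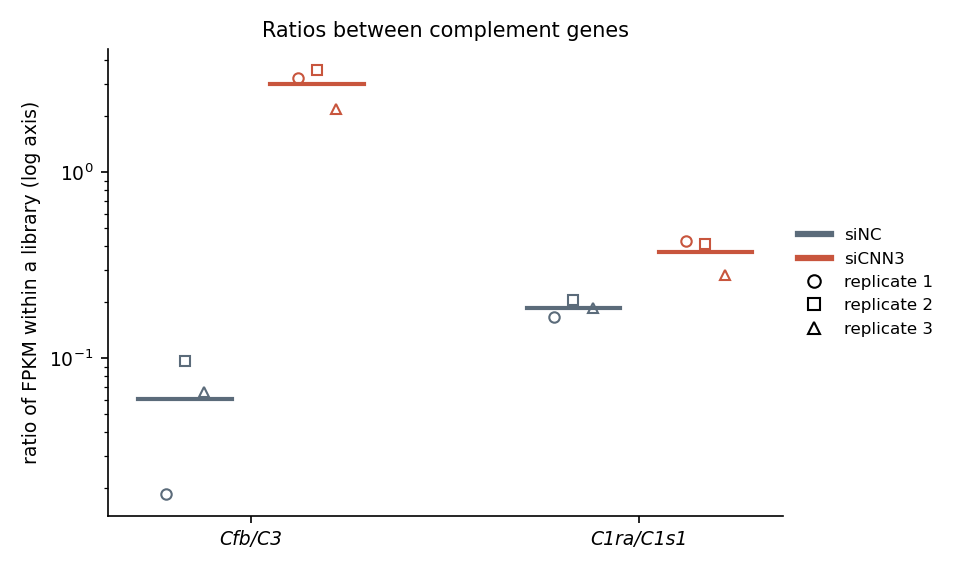
Ratios of FPKM between complement genes within each sample (log axis), with a symbol for each replicate and a bar at the mean of 3 samples, siNC in grey and siCNN3 in red. Cfb/C3 lies at 0.0185 to 0.0970 in siNC and 2.19 to 3.53 in siCNN3, and C1ra/C1s1 at 0.166 to 0.206 in siNC and 0.282 to 0.426 in siCNN3.

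The regulators among the 7 genes were at 8.79 FPKM or less in every sample. Serping1 encodes the C1 inhibitor, a serpin that inactivates C1r and C1s, and lies on chromosome 2 from 84765387 to 84775444. It was expressed at 1.17, 1.11 and 1.40 FPKM in the siNC group, whereas the siCNN3 group had 0.720, 1.37 and 1.33 FPKM. Its groups overlapped, and its log2 fold change of -0.071 (95% interval -0.51 to 0.37, adjusted p = 0.885, limma) turned to 0.079 without siCNN3 replicate 1. The C1 proteases that Serping1 inhibits were listed at much higher FPKM in the same samples.

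Cd55 encodes decay-accelerating factor, which takes convertases apart on the cell surface, and lies on chromosome 1 from 130439027 to 130462744. It had 0.996, 2.05 and 1.17 FPKM in the siNC samples and 0.328, 0.330 and 0.580 FPKM in the siCNN3 samples. All siCNN3 samples were below all siNC samples, at levels where the FPKM of few tested genes were lower, 0.604% of them in siCNN3. The siCNN3 mean was 29.3% of the siNC mean. On the log2(FPKM + 1) scale the difference was -0.75 (95% interval -1.25 to -0.25, adjusted p = 0.138, limma), and with a pseudocount of 0.1 in place of 1 it was -1.53 (adjusted p = 0.133, limma).
Cd59a encodes CD59, which blocks assembly of the membrane attack complex, and lies on chromosome 2 from 104095801 to 104115354. It was expressed at 7.07, 6.19 and 8.79 FPKM in the siNC group, whereas the siCNN3 group had 5.72, 1.34 and 2.06 FPKM. The groups did not overlap, but siCNN3 replicate 1 was nearer to the siNC samples than to the other siCNN3 samples. The log2 fold change was -1.19 (95% interval -2.10 to -0.28, adjusted p = 0.193, limma). It was -1.63 without siCNN3 replicate 1 (adjusted p = 0.0618, limma) and -0.87 without siCNN3 replicate 2 (adjusted p = 0.505, limma).

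The 3 genes whose siCNN3 values all lay below siNC, C3, Cd55 and Cd59a, are shown here with the 250 bases before their start sites, since regulatory sequence is found there. The sequences are from RefSeq (GRCm38.p6), 5′ to 3′ on the strand of the gene, with motif matches in capitals. They are chr17:57228137-57228386 (reverse strand) for C3, chr1:130462745-130462994 (reverse strand) for Cd55 and chr2:104095551-104095800 (forward strand) for Cd59a.
C3: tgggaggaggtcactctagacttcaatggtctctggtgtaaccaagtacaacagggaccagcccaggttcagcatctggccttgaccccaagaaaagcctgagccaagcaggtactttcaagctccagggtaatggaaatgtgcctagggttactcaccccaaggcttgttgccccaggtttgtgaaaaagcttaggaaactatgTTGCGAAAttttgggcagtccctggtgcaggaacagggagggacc
Cd55: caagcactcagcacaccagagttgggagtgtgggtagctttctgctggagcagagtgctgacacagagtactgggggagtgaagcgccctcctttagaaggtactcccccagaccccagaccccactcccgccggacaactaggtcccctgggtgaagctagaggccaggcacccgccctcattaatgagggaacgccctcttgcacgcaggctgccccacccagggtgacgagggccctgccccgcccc
Cd59a: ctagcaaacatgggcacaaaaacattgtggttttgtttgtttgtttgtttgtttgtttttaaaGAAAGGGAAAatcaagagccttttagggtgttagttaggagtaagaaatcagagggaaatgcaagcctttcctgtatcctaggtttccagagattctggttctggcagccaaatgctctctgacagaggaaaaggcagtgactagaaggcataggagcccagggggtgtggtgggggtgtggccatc
Searched on both strands were the interferon-stimulated response element (GAAA, any 2 bases, GAAA), the gamma-activated site TTCNNNGAA, the C/EBP element TTGCNNAA and the consensus site of NF-κB. They are held by 2.98%, 7.02%, 9.56% and 7.25% of the 32851 windows of 250 bases before RefSeq start sites. Of the 8 genes, 5 have an entry in that table, with 6 windows, while C4b, Cfb and Serping1 have none. The interferon motif matched in Cd59a, 187 bases before the start site, and the C/EBP element matched in C3, 45 bases before it, and in a window of C1s1. No matches overlapped each other, and Cd55 had none. The window of C1ra, from 124512371 to 124512620, also had none, but most of it lies inside the gene as GENCODE annotates it, which starts at 124512405. A match is a description of letters and not a measured binding site.

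Ordered by mean level in siNC, the genes were C1s1 (261.4 FPKM), C3 (93.4), C1ra (49.1), Cd59a (7.35), Cfb (6.44), Cd55 (1.41) and Serping1 (1.23). The first 3 were separated from each other and from Cd59a by ranges that did not overlap, whereas the ranges of Cd59a and Cfb, of Cfb and Cd55 and of Cd55 and Serping1 overlapped. In siCNN3 the order was C1s1 (214.0 FPKM), Cfb (158.4), C1ra (79.0), C3 (52.6), Cd59a (3.04), Serping1 (1.14) and Cd55 (0.412). Only the ranges of Cd59a and Serping1 overlapped among those neighbours. Cfb moved from the fifth place to the second, and C3 from the second to the fourth.

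The other complement genes were taken from a list of 49, of which 15 have a transcript among the deposited values and 14 passed the filter on low values. By limma 0 of the 14 were called higher and 0 lower (1.73% and 0.336% of all tested genes). Before adjustment, p was below 0.05 for 1 higher and 2 lower genes (9.94% and 6.14% of all tested genes), and the median log2 fold change was 0.20. The siCNN3 values lay wholly above siNC for 0 genes (13.8% of all tested genes) and wholly below it for 3, Cfp and Clu among them (9.35% of all tested genes). The 34 genes without a listed transcript include those of C1q, C2, C6, C7 and C9, and they were not analysed here.
Clu, the gene of clusterin, which binds terminal components (chromosome 14, 65968483 to 65981547), had 8.17, 4.68 and 8.24 FPKM in the siNC samples and 2.99, 3.26 and 4.07 FPKM in the siCNN3 samples. Its log2 fold change was -0.83 (95% interval -1.38 to -0.28, adjusted p = 0.138, limma). Cfp encodes properdin, which stabilizes the alternative convertase, and had 3.16, 3.70 and 3.64 FPKM in the siNC samples and 2.69, 1.81 and 3.02 FPKM in the siCNN3 samples (log2 fold change -0.37, adjusted p = 0.371, limma).
Further genes overlapped between the groups. The membrane regulators Cr1l (Crry, the main rodent inhibitor of C3 convertases on cells), Cd46 and Thbd had log2 fold changes of 0.71, 0.27 and 0.30 (adjusted p = 0.379, 0.495 and 0.439, limma). Cr1l had 9.62, 18.2 and 14.6 FPKM in the siNC samples and 31.6, 28.3 and 13.6 FPKM in the siCNN3 samples, so that siCNN3 replicate 3 lay among the siNC samples. C1qbp, whose product binds C1q, had a log2 fold change of 0.46 (unadjusted p = 0.0299 and adjusted p = 0.248 from limma). The proteases Masp1, C1rl, C1rb and C1s2 and the terminal component gene C8g had log2 fold changes between -0.24 and 0.40, and the receptor genes C3ar1 and Itgb2 were at 0.38 each. Cd93 was at 0.280 to 0.787 FPKM and below the filter.

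**Figure D4:**
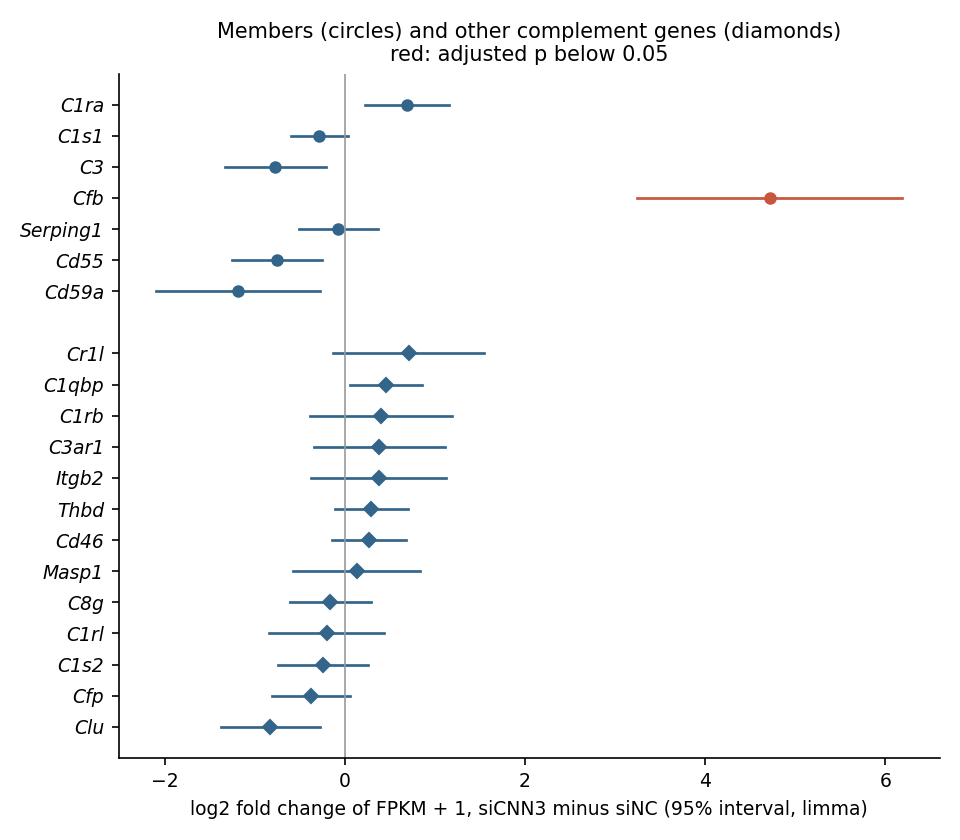
Log2 fold change of FPKM + 1, siCNN3 minus siNC, with its 95% interval from limma, for the 7 genes described (circles) and 13 other complement genes (diamonds). Cfb at 4.71 is the only gene shown with an adjusted p below 0.05 (red), and the intervals of C1ra and C1qbp lie above 0 and those of C3, Cd55, Cd59a and Clu below it.

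Genes that are known to act on complement transcription, and genes induced by interferon, were set beside these values. In a list of 31 cytokines, receptors and transcription factors, 28 were tested. Of these, limma called 3 higher and 0 lower (1.73% and 0.336% of all tested genes). Before adjustment, p was below 0.05 for 7 that were higher and 1 that was lower (9.94% and 6.14% of all tested genes). The median log2 fold change of the list was 0.069. Among the called genes were Irf7 (log2 fold change 4.36, adjusted p = 0.0305) and Il6 (1.70, adjusted p = 0.0333), both by limma. Of 20 interferon-induced genes, 15 were called higher and 0 lower (1.73% and 0.336% of all tested genes), and their median log2 fold change was 3.85. At an unadjusted p below 0.05 there were also 0 lower (6.14% of all tested genes). The largest log2 fold changes among the called were those of Cxcl10 (6.30), Ifit3 (5.88), Oas1a (5.02), Rsad2 (4.80) and Oas2 (4.48). On the log2 scale and set against their siNC mean, these 20 genes averaged over each sample took the values -0.86, 1.03 and -0.16 within the siNC group and 4.23, 4.52 and 3.21 within the siCNN3 group. Cfb followed the same order within siNC, lowest in replicate 1 and highest in replicate 2. In siCNN3 Cfb was also lowest in replicate 3, but it was highest in replicate 1, whereas the 20 genes were highest in replicate 2. Among the siNC samples, replicate 2 was also the highest for C3, C1ra, C1s1 and Cd55, but the lowest for Cd59a and Serping1. The part of the interferon-induced genes in the complement values was not tested.

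The genes whose log2(FPKM + 1) over the 6 samples was most like that of Cfb were Phf11d, Irf7, Trim25, Tmem71 and Lin52, with Pearson r of 0.999, 0.998, 0.997, 0.997 and 0.997. These values are a description over 6 samples that fall into 2 groups, and any gene that separates the groups widely has a high r. Phf11d was expressed at 1.91, 23.5 and 8.71 FPKM in the siNC group, whereas the siCNN3 group had 328.2, 292.1 and 161.0 FPKM, the same order of samples as Cfb. Irf7, a transcription factor of the interferon response, had 0.796, 11.8 and 5.33 FPKM in the siNC samples and 130.8, 121.5 and 76.6 FPKM in the siCNN3 samples. Trim25, a ubiquitin ligase gene, and Lin52 were lower in every siNC sample than in any siCNN3 sample, with log2 fold changes of 1.73 and 0.60 (adjusted p = 0.0222 and 0.106, limma). Tmem71 was at 0.135 to 0.520 FPKM in siNC and 0.937 to 1.22 FPKM in siCNN3 (adjusted p = 0.125, limma).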

How the data were processed

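RNA of 6 samples of C2C12 cells, 3 siNC and 3 siCNN3, was compared. The authors deposited FPKM for 24023 Ensembl transcripts per sample. The submitters' processing notes name Bowtie 0.12.2 and the builds mm8 and mm10 without a role, and the program that estimated FPKM, the annotation and the strand setting are not given in the sources used here. Whether and how multi-mapping reads were divided is also not given, and this bears on tandem copies. Identifiers were matched without version to GENCODE M21 (GRCm38), which placed 23949 transcripts, and FPKM were summed by gene symbol for 11835 genes. The 74 unmatched transcripts held 0.159% to 0.220% of a sample's FPKM. Values go down to 1e-06 FPKM, so depth cannot be recovered. Exact zeros can be failed estimates, since 238 transcripts have a 0 beside at least 10 FPKM within their own group.

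The 11593 genes whose mean reached 0.5 FPKM entered limma 3.58.1 (R 4.3.3) as log2(FPKM + 1), a scale that understates changes of low genes. The fit used a mean-variance trend, and p-values were adjusted by Benjamini-Hochberg with a threshold of 0.05. This fit was also run on simulated data with means and spreads taken from these samples. The simulated noise was independent between genes, which may not hold in these samples. Python 3.11.15 (pandas 2.3.3, numpy 2.4.6, matplotlib 3.10.9) was used for permutation tests, ratios, sequences and plots. The 8 genes and the lists were chosen with earlier results of these data known. Named are the 8 genes, the listed genes of the complement list, Cnn3, up to 5 called genes with the largest change in the inducer and interferon lists, and the 5 tested genes that correlate best with the mean of the called members, here Cfb alone. Some genes that meet this rule are not reported here. Marker genes named beside them were chosen after their values were seen. The alternatives were another pseudocount or filter, other scalings, a replicate block, each sample left out, limma without a trend, a Student's test of each gene, other transcript sums and sums with tandem copies.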

Additional observations from a re-analysis of the deposited data

How the results depend on the processing

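Of 17 alternatives, Cfb kept its direction in each and its call in 13 (adjusted p between 0.0148 and 0.149, limma or Student's test), and the other 6 genes were called in none in which they were tested. The number of the 7 genes called higher was 0 by a Student's test of each gene and between 0 and 1 when a sample was left out. Over all genes, 200 were called higher and 39 lower. These counts were 62 and 6 with the replicate block, 100 and 22 with the transcript of the highest mean, 0 and 0 by Student's test, and between 16 and 443 higher and 4 and 159 lower when a sample was left out. Median-of-ratios scaling gave 63 lower and quantile normalization 92 lower, and of all calls 83.7% were higher as reported, 77.7% after the former and 68.4% after the latter. With a sample left out the log2 fold change lay between -0.15 and 0.079 for Serping1, -0.17 and 0.34 for Masp1 and -0.43 and 0.0030 for C1rl, turning sign without siCNN3 replicate 1, siNC replicate 1 and siCNN3 replicate 3, and the cause was not tested. Whether same-numbered samples share a culture or batch is not given. Their deviations from the group means correlated by -0.278, 0.314 and -0.0247 for numbers 1, 2 and 3. With 3 samples in a group these deviations constrain each other, so they cannot decide this. Cfb had an adjusted p of 0.0456 (limma) with the block. With a filter at 5 FPKM, Serping1 and Cd55 could not be tested. The alternatives for the log2 fold change of each other complement gene were added after the data were seen. Depth is unknown, which limits the genes near 1 FPKM most.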
